A study of Mus musculus with 8 samples.

Results

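The genes described here build and receive the transport vesicles of the early secretory pathway. They are 47 genes given as a list of names, namely 13 of the COPII coat and its exit sites, 11 of the COPI coat with its GTPase and cargo receptors, 9 golgins and Golgi stacking proteins, 6 SNAREs and the 8 subunits of the conserved oligomeric Golgi (COG) complex. All 47 were found by symbol among the 23337 gene symbols of the tables, each on 1 row. The list was set by name and not by a rule on measured values, though earlier results of these data were known. Copg (the gamma subunit of COPI) and Stx5a (a Golgi syntaxin) are written as the tables spell them.

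The cells were naive T cells, sorted as CD62L+ and CD44low, from mesenteric lymph nodes (mLNs) and spleens of mice 4 weeks old. The knockout (KO) mice were CD4-cre Trappc1 cKO animals. In these a Cre recombinase driven by the CD4 promoter acts in developing T cells before the CD4 and CD8 lineages part. Both lineages should therefore carry the deletion. Wild type (WT) mice of the same age were the reference, and the labels do not say whether they carried the Cre transgene. The 8 libraries form 4 groups of 2, which are CD4 KO, CD4 WT, CD8 KO and CD8 WT. The labels do not say that the 2 libraries of a group came from separate mice, so the p-values measure the spread between libraries, which may be technical.

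COPII coats form at exit sites of the endoplasmic reticulum (ER), where the GTPase Sar1 recruits an inner layer of Sec23 and Sec24 and then an outer cage of Sec13 and Sec31, and they carry new proteins toward the Golgi. COPI coats, recruited by the GTPase Arf1, return escaped ER residents and recycle enzymes within the Golgi. Golgins and the COG complex catch the arriving vesicles, SNAREs fuse them, and TRAPP complexes, of which Trappc1 is a core subunit, act at the same step as tethers that bind the COPII coat and activate the GTPase Rab1. In T cells this route carries the antigen receptor and other surface proteins to the plasma membrane.

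Levels are given as TPM, a length-corrected share of all transcripts in a library, and differences as KO minus WT on the log2(TPM + 1) scale, which understates the change of low genes. Trappc1 itself stood at 30.5 and 32.8 TPM in CD4 KO libraries, against 78.7 and 55.0 TPM in CD4 WT libraries. In CD8 KO libraries it stood at 56.9 and 45.6 TPM, against 81.2 and 40.3 TPM in CD8 WT libraries. There the groups overlapped only through CD8 WT replicate 2, at 40.3 TPM, a library described below. The log2 differences were -1.03 in CD4 cells and -0.16 in CD8 cells (limma, adjusted p = 0.235 and 0.869). The deleted part of the gene is not given, so reads from the remaining part may be included, and the CD8 KO libraries are therefore called KO by their labels.

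Depth ranged from 3.03 to 4.01 aligned gigabases per library. Library CD8 WT replicate 2 stood apart. The summed TPM of 7 erythroid markers was 92700 in it, against 2250 in CD8 WT replicate 1 and at most 382 in the other libraries, and that of 9 myeloid markers was 29400, against at most 2180 elsewhere. Its T cell markers summed to 2020 TPM, against 4470 TPM in CD8 WT replicate 1, and 5 naive markers to 5280 TPM, against 11800 TPM. Its 7 plasma cell markers summed to 3130 TPM, against 374 TPM in CD8 WT replicate 1. Its B cell markers summed to 12300 TPM, against 947 TPM. Of these Cd74 stood at 11400 TPM, while Cd79b was lower, at 145 TPM, against 218 TPM in CD8 WT replicate 1. The CD8 class medians, and the CD8 differences printed with a standard error, are therefore also given without CD8 WT replicate 2. That leaves CD8 WT replicate 1 alone as the reference, from which the CD8 KO libraries also differed in markers. In the CD8 KO libraries 6 memory and effector markers summed to 504 and 562 TPM, against 123 TPM in CD8 WT replicate 1. Myeloid markers summed to 1160 and 1520 TPM, against 642 TPM, and erythroid markers to 209 and 346 TPM, against 2250 TPM. In CD4 cells the myeloid markers summed to 1280 and 2180 TPM in KO libraries, against 250 and 72.0 TPM in WT libraries, with 8 of 9 higher in group mean and Lyz2 among them at 631 and 926 TPM in CD4 KO libraries, against 86.9 and 49.0 TPM in CD4 WT libraries. Mpo was listed at 0 in CD4 WT replicate 2. The erythroid markers summed to 382 and 213 TPM in CD4 KO libraries, against 14.5 and 107 TPM in CD4 WT libraries. The 5 T cell markers summed to 2870 and 2920 TPM in CD4 KO libraries, against 4250 and 3710 TPM in CD4 WT libraries. Of these 1 was higher in group mean, Cd3e, at 721 and 706 TPM in CD4 KO, against 426 and 554 TPM in CD4 WT. The 6 B cell markers summed to 5240 and 4600 TPM in CD4 KO libraries, against 9420 and 7250 TPM in CD4 WT libraries. Most of this sum was Cd74, at 3270 and 2720 TPM in CD4 KO, against 7010 and 4510 TPM in CD4 WT. Of the B cell markers 1 was higher in group mean, Ms4a1, at 255 and 264 TPM, against 212 and 222 TPM. The part of these cell types in the results below was not tested, and in bulk RNA fewer cells of a type and less RNA per cell cannot be told apart. Cd4 reached at most 14.5 TPM in CD8 libraries and Cd8a at most 4.10 TPM in CD4 libraries.

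The coat, tether and SNARE genes were abundant. Their median level was 75.9 TPM averaged over the 8 libraries, against 20.9 TPM for the 11786 genes tested, and 39 of the 47 exceeded 10 TPM in every library. Stx5a was the highest in all libraries, at 455 and 599 TPM in CD4 KO, 418 and 500 TPM in CD4 WT, 501 and 498 TPM in CD8 KO and 464 and 342 TPM in CD8 WT. Gorasp1, a Golgi stacking protein, was the lowest in all libraries except CD4 KO replicate 1, where Sec24d was lower. Summed over the 47 genes, the level was 5039 and 5378 TPM in CD4 KO libraries, against 5068 and 5144 TPM in CD4 WT libraries. The sum was 5414 and 5169 TPM in CD8 KO libraries, against 4971 and 3474 TPM in CD8 WT libraries, the last value being that of the library that stood apart. All 47 passed the filter of a mean of 1 TPM over the 8 libraries.

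**Figure D1:**
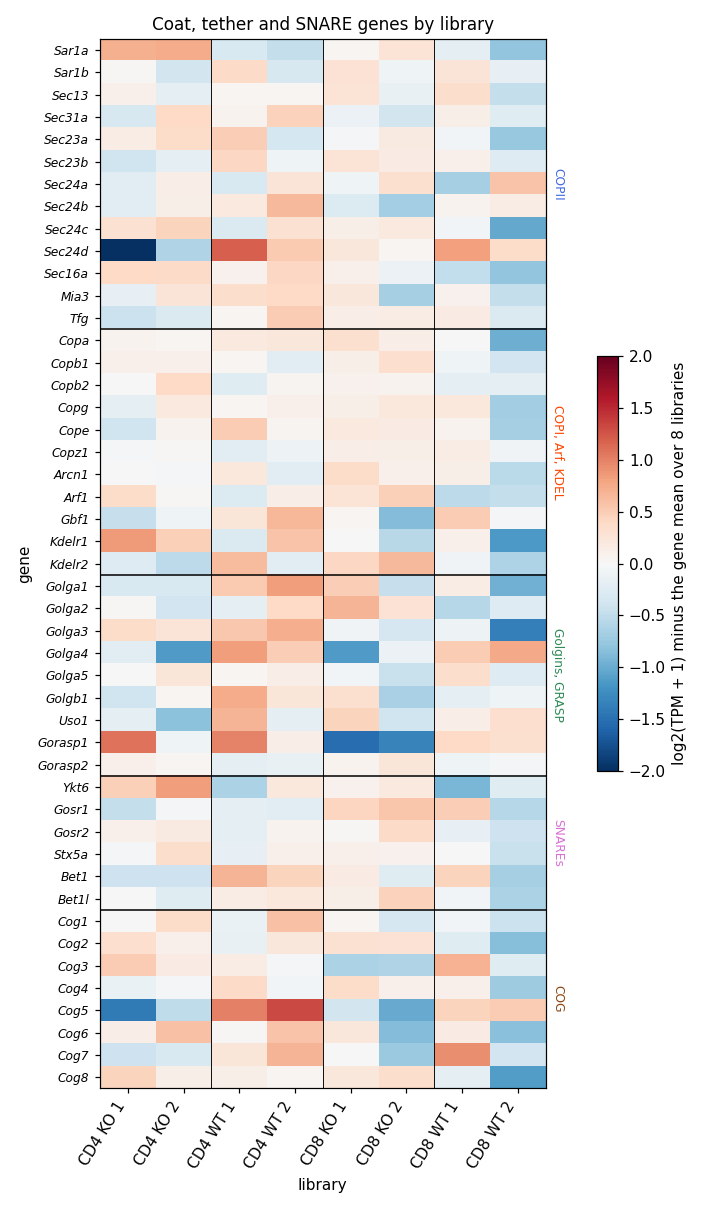
Heat map of the 47 genes (rows, ordered by class) in the 8 libraries (columns), coloured by log2(TPM + 1) minus the mean of that gene over the 8 libraries, with colours ending at ±2, which Sec24d in CD4 KO 1 exceeds. Cog5, Sec24d and Golga4 are lowest in KO columns, Sar1a is highest in the CD4 KO columns, and the CD8 WT 2 column is the lowest of the 8 for 23 genes.

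No gene of the list passed the test in either lineage in the main fit, which used all 8 libraries. Some other settings called up to 3 of them in CD4 cells, as given at the end. In CD4 cells 0 of 47 were called at an adjusted p of 0.05 or less (limma), against 0.713% of all tested genes, 22 of them higher and 62 lower. At an unadjusted p under 0.05 there were 4 of 47 (8.51%), against 16.7% of all tested genes. Of the 4, Sar1a was higher and Cog5, Sec24d and Golga4 were lower, where 5.03% of all tested genes were higher and 11.7% lower at this threshold. In CD8 cells 0 of 47 were called, against 0.297% of all tested genes, 13 higher and 22 lower. At an unadjusted p under 0.05 there were 7 of 47 (14.9%), against 15.1% of all tested genes. Of the 7, Arf1, Cog2, Cog8 and Kdelr2 were higher and Gorasp1, Cog5 and Golga4 lower, where 7.08% of all tested genes were higher and 8.01% lower. Both shares at the unadjusted threshold were at or below the background. The fit estimates 1 spread per gene over all 4 groups, so the standard errors in CD4 cells equal those in CD8 cells. They include the spread between the 2 CD8 WT libraries. Over all tested genes these correlated at 0.821 on the log2(TPM + 1) scale, against 0.929 to 0.951 within the other groups. The standard errors ran from 0.26 for Copz1 to 0.66 for Sec24d. Differences of the size seen for most of these genes could therefore not be told from 0 in this fit. Exact permutation of 2 against 2 libraries cannot give a two-sided p below 0.333.

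Taken over the list, the median difference in CD4 cells was -0.07, with 18 genes higher and 29 lower, against a median of -0.16 over all tested genes, of which 41.7% were higher. Scaling the libraries by the median of ratios moved the median of all genes to 0.03 and that of the list to 0.13, with 27 higher and 20 lower, so the direction of the list's median in CD4 cells depends on the scaling, while it lay above that of all genes under both. The same scaling changed the calls over all genes in CD4 cells to 62 higher and 79 lower. In CD8 cells the median was 0.26, with 34 genes higher and 13 lower, against 0.05 over all tested genes, of which 52.4% were higher. Without CD8 WT replicate 2 the CD8 median was 0.00, with 24 higher and 23 lower, against -0.07 over all genes. That library was the lowest of the 8 for 48.9% of the list and for 29.5% of all tested genes. Without CD8 WT replicate 1 the CD8 median was 0.55, against 0.20 over all genes. That fit keeps only the library that stood apart as the CD8 WT reference.

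**Figure D2:**
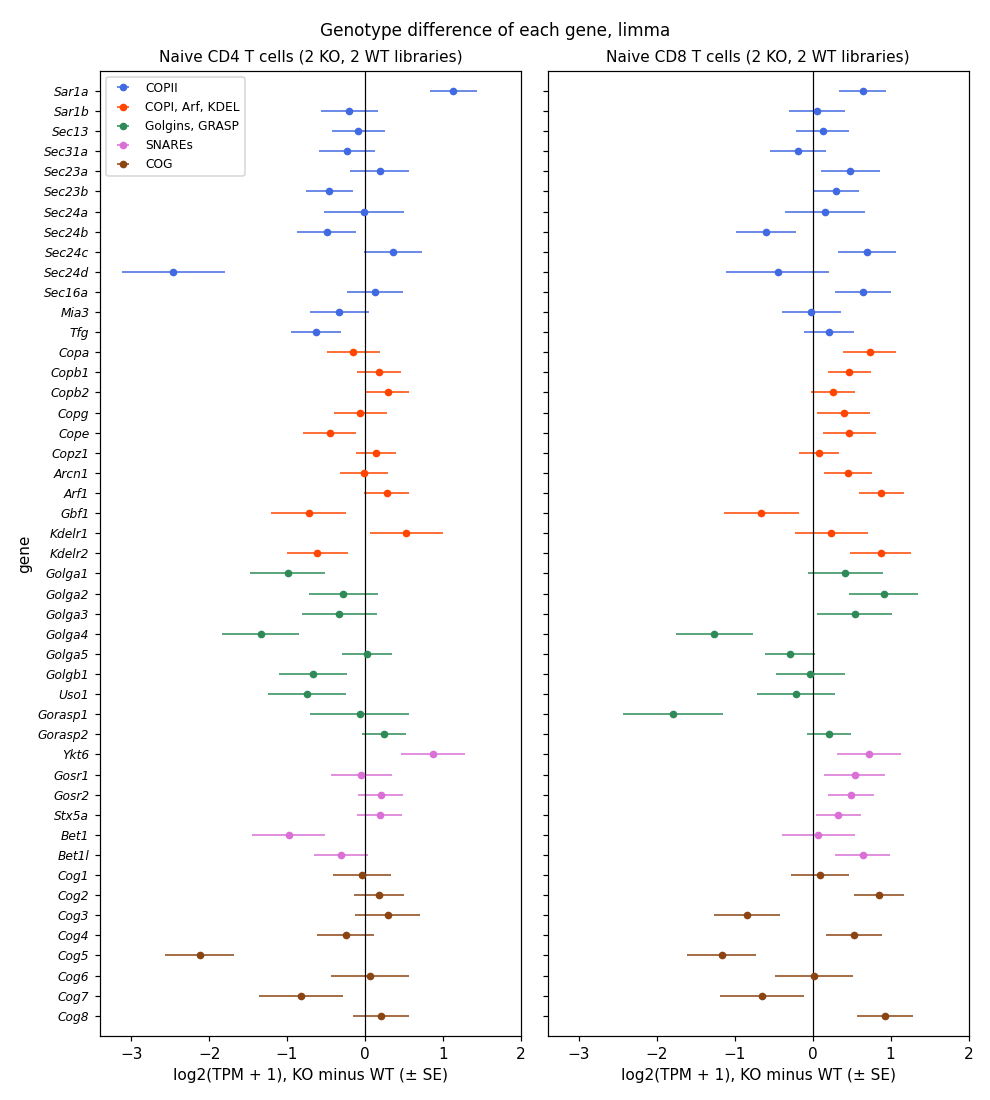
Difference of KO minus WT on the log2(TPM + 1) scale (points, horizontal axis) with its standard error (bars) for each of the 47 genes (rows, coloured by class) in CD4 cells (left) and CD8 cells (right), 2 KO and 2 WT libraries each. In CD4 cells Sec24d (-2.46) and Cog5 (-2.12) lie farthest below 0 and Sar1a (1.13) farthest above, and in CD8 cells Gorasp1 (-1.79) lies farthest below.

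Libraries of KO and WT cells did not overlap for 24 of 47 genes in CD4 cells, 8 above and 16 below WT, where 58.1% of all tested genes did not overlap, 21.7% above and 36.5% below. In CD8 cells 25 of 47 did not overlap, 19 above and 6 below WT, against 42.1% of all tested genes, 23% above and 19.1% below. Without CD8 WT replicate 2, which leaves 1 WT library to compare with, 35 of 47 did not overlap, 20 above and 15 below WT, against 73.5% of all tested genes, 32.4% above and 41% below. For 10 genes, 21.3% of the list, the libraries did not overlap in the same direction in both lineages, against 20% of all tested genes, and without that library for 14 genes (29.8%), against 36.4%. Sar1a, Sec24c, Copb1, Gorasp2, Ykt6 and Gosr2, 6 of the 47, lay above WT in both, as did 8.93% of all tested genes. Sec24b, Sec24d, Golga4 and Cog5, 4 of the 47, lay below WT in both, as did 11.1% of all tested genes. The libraries of Kdelr2, Sec23b, Copa and Bet1l lay below WT in CD4 cells and above WT in CD8 cells, and those of Cog3 the reverse. The share of all tested genes lying apart in opposite directions was not computed, so this is not read as a trait of the list.

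Promoter sequences, credited to RefSeq on GRCm38.p6, were available for 43 of the 47 genes, leaving Arcn1, Kdelr2, Golga4 and Golgb1. Each window runs from 250 bases before to 50 bases after the annotated start. The windows of 4 genes are printed, namely Cog5, Sar1a and Sec24d, which had the lowest p of the list in CD4 cells, and Arf1, which had the lowest p in CD8 cells. A second window of Arf1, around another annotated start, holds the same marked motifs and is not printed. Capitals mark the CCAAT box (CCAAT), the core of the unfolded protein response element (TGACGTGG) and the Golgi stress response element (ACGTGGC), on either strand, so that the reverse complement of a motif is also in capitals. Sequences are given on the strand of the gene. Cog5 lies at chr12:31654619-31654918 on the plus strand, Sar1a at chr10:61680035-61680334 on the plus strand, Sec24d at chr3:123267246-123267545 on the plus strand and Arf1 at chr11:59228218-59228517 on the minus strand.
Cog5: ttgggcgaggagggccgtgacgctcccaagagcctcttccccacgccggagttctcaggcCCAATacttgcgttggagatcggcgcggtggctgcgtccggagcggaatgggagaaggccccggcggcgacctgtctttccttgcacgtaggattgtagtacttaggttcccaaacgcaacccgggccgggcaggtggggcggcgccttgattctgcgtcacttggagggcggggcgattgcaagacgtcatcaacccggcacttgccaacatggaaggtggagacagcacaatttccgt
Sar1a: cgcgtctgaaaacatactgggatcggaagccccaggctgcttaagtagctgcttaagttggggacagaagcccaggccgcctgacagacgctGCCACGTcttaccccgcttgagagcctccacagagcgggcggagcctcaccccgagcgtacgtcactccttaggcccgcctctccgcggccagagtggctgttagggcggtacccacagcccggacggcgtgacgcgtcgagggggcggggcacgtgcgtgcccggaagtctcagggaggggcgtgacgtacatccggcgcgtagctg
Sec24d: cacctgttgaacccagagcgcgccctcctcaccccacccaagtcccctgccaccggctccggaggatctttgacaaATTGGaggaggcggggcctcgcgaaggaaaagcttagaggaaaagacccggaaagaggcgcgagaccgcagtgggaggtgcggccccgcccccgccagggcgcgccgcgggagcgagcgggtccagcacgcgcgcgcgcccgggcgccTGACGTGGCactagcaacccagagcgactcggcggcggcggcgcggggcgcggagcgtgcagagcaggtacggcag
Arf1: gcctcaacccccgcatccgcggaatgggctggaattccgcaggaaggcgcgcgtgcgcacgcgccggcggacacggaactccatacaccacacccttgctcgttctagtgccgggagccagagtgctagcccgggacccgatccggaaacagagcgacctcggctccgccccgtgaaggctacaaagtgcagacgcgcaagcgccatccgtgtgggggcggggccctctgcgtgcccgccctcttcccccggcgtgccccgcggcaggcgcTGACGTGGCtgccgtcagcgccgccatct

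The marked letters differ among these windows. Sec24d and Arf1, whose differences had opposite signs, both hold TGACGTGG followed by C, which contains ACGTGGC by overlap. Sar1a holds ACGTGGC on the other strand and Cog5 holds the CCAAT box alone. TGACGTGG was found on either strand in the windows of 7 of 43 genes (16.3%), namely Arf1, Copb1, Copb2, Gbf1, Sec23a, Sec24d and Stx5a, against 1.04% of the 8355 tested genes with a window. ACGTGGC was found in 12 of 43 (27.9%), against 4.64%, and the CCAAT box in 18 of 43 (41.9%), against 43.5%. The longer ER stress response element, which joins a CCAAT box to CCACG, was found for 0 of 43 genes and for 0.180% of the tested genes. The 7 genes with TGACGTGG were not all of 1 sign, with 5 higher and 2 lower and a median of 0.19 in CD4 cells, and 5 higher and 2 lower with a median of 0.33 in CD8 cells. The whole list had 18 higher and 29 lower in CD4 cells, and 34 higher and 13 lower in CD8 cells. Without CD8 WT replicate 2 the CD8 differences of the 7 genes ran from -0.93 for Gbf1 to 0.90 for Arf1. The motif matches describe letters only.

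Among the COPII genes, Sar1a, a GTPase that starts coat assembly, lay higher in KO libraries and the cargo adaptor Sec24d lay lower. Neither gene was called in either lineage in the main fit. With library weights both were called in CD4 cells, and under median-of-ratios scaling Sar1a was. Sar1a stood at 409 and 417 TPM in CD4 KO libraries, against 201 and 178 TPM in CD4 WT libraries. It stood at 254 and 299 TPM in CD8 KO libraries, against 217 and 143 TPM in CD8 WT libraries. The KO libraries lay above the WT libraries in each lineage, more widely in CD4 cells. The difference was 1.13 ± 0.30 in CD4 cells and 0.64 ± 0.30 in CD8 cells (SE, limma, adjusted p = 0.117 and 0.344). Leaving out CD8 WT replicate 2 left the CD4 difference at 1.13 and gave an adjusted p of 0.0174 (limma), a call, and leaving out CD8 WT replicate 1 gave 0.0182. With each of the other 6 libraries left out the adjusted p lay between 0.200 and 0.601 (limma). The CD8 difference was 0.34 ± 0.21 without CD8 WT replicate 2. Its paralogue Sar1b, at 72.9 and 55.4 TPM in CD4 KO and 93.4 and 57.4 TPM in CD4 WT libraries, and at 87.5 and 67.2 TPM in CD8 KO and 85.6 and 64.2 TPM in CD8 WT libraries, overlapped between genotypes in both lineages. Sar1a therefore made up 84.9% and 88.3% of Sar1 transcripts in CD4 KO libraries, against 68.2% and 75.6% in CD4 WT libraries. In CD8 KO libraries its share was 74.4% and 81.6%, against 71.7% and 68.9% in CD8 WT libraries.

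Sec24d, 1 of 4 Sec24 adaptors that select cargo, stood at 0.787 and 6.12 TPM in CD4 KO libraries, against 23.8 and 14.6 TPM in CD4 WT libraries. The CD8 KO libraries held 11.7 and 10.1 TPM, against 18.0 and 13.0 TPM in CD8 WT libraries. KO lay below WT in both lineages, and the 2 CD4 KO libraries differed widely from each other. The difference was -2.46 ± 0.66 in CD4 cells and -0.45 ± 0.66 in CD8 cells (SE, limma, adjusted p = 0.120 and 0.765), without CD4 KO replicate 1 the CD4 difference was -1.47, and without CD8 WT replicate 2 the CD8 difference was -0.67 ± 0.84. The average coverage of the gene was 1.01 and 7.87 reads per base in the CD4 KO libraries. The test of the difference between lineages for Sec24d gave 2.01 ± 0.94, which limma did not call. Sec24c carried most of the Sec24 transcripts, at 220 and 242 TPM in CD4 KO, against 146 and 220 TPM in CD4 WT, and at 193 and 205 TPM in CD8 KO, against 172 and 86.7 TPM in CD8 WT. Its share of Sec24 transcripts was 85.1% and 81.6% in CD4 KO libraries, against 67.9% and 73.7% in CD4 WT libraries, while the share of Sec24d was 0.305% and 2.06% in CD4 KO libraries, against 11.1% and 4.90% in CD4 WT libraries. Sec24b stood at 23.2 and 29.7 TPM in CD4 KO, against 31.6 and 43.7 TPM in CD4 WT, and at 22.4 and 16.8 TPM in CD8 KO, against 29.0 and 30.6 TPM in CD8 WT. Sec24a overlapped between genotypes in both lineages, at 14.4 and 18.8 TPM in CD4 KO and 13.5 and 20.4 TPM in CD4 WT libraries, and at 15.9 and 21.4 TPM in CD8 KO and 10.4 and 25.7 TPM in CD8 WT libraries.

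**Figure D3:**
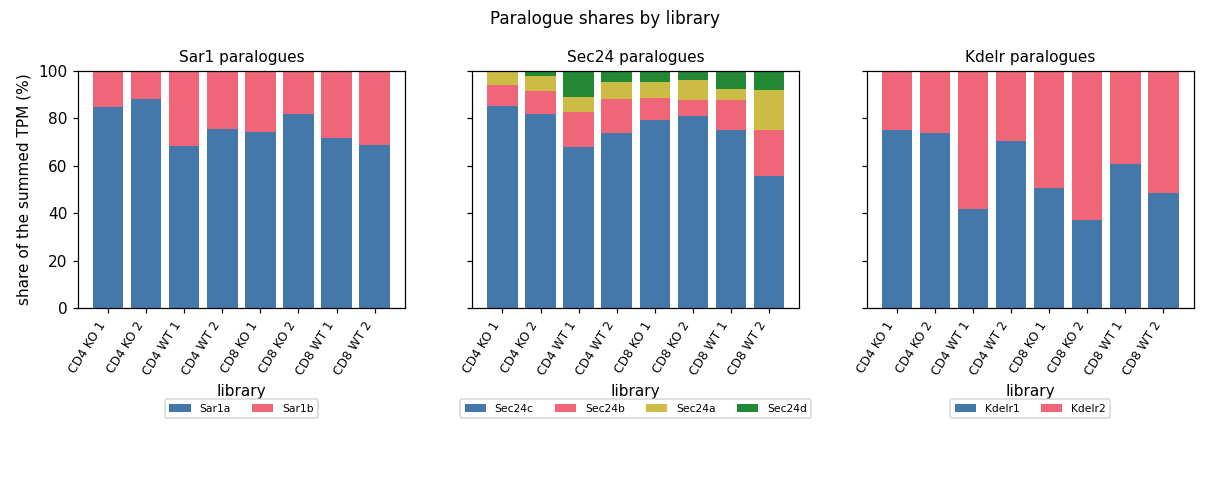
Share (%) of the summed TPM of each paralogue set held by each gene (stacked colours) in the 8 libraries (bars) for Sar1, Sec24 and Kdelr. Sar1a and Sec24c hold larger shares in both CD4 KO bars than in both CD4 WT bars, and Sec24d is thinnest in the CD4 KO bars at 0.305% and 2.06%.

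The rest of the COPII coat showed smaller differences. Over the 13 COPII genes the median was -0.20 in CD4 cells, with 4 higher and 9 lower, and 0.16 in CD8 cells, with 9 higher and 4 lower. The CD8 median turned to -0.02 without CD8 WT replicate 2, with 6 higher and 7 lower. Sec13, of the outer cage, was the most abundant of the class by mean, at 374 and 306 TPM in CD4 KO, 360 and 361 TPM in CD4 WT, 425 and 315 TPM in CD8 KO and 448 and 250 TPM in CD8 WT libraries, with overlap in both lineages. Its partner Sec31a overlapped too. Of the inner coat pair, Sec23b stood at 126 and 144 TPM in CD4 KO, against 220 and 156 TPM in CD4 WT, and at 201 and 186 TPM in CD8 KO, against 177 and 138 TPM in CD8 WT. Sec23a stood at 85.7 and 99.7 TPM in CD4 KO, against 109 and 60.0 TPM in CD4 WT, and at 74.9 and 87.8 TPM in CD8 KO, against 74.2 and 45.2 TPM in CD8 WT. The Sec23b share of Sec23 transcripts was 59.6% and 59.2% in CD4 KO libraries, against 66.9% and 72.3% in CD4 WT libraries, and the CD8 genotypes overlapped. Of the exit site proteins Sec16a, Mia3 and Tfg, Mia3 and Tfg lay below WT in CD4 cells and Sec16a above WT in CD8 cells, by -0.33 ± 0.38, -0.63 ± 0.32 and 0.64 ± 0.36 (SE), the last being 0.48 ± 0.34 without CD8 WT replicate 2.

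The 7 subunits of the COPI coat lay at similar levels. In each library the highest subunit exceeded the lowest by a factor of only 1.66 to 2.37, and their sum was 1440 and 1630 TPM in CD4 KO libraries, against 1640 and 1500 TPM in CD4 WT libraries. It was 1730 and 1680 TPM in CD8 KO libraries, against 1550 and 1080 TPM in CD8 WT libraries. Over the 11 genes of the COPI class the median difference was -0.01 in CD4 cells, with 5 higher and 6 lower, and 0.45 in CD8 cells, with 10 higher and 1 lower. Leaving out CD8 WT replicate 2 gave a CD8 median of 0.12, with 7 higher and 4 lower. Cope, the epsilon subunit and the most abundant of the class by mean, stood at 209 and 289 TPM in CD4 KO, against 394 and 288 TPM in CD4 WT, and at 316 and 310 TPM in CD8 KO, against 291 and 175 TPM in CD8 WT. Copa, the alpha subunit that reads retrieval signals on cargo, stood at 199 and 195 TPM in CD4 KO, against 217 and 222 TPM in CD4 WT, and at 236 and 208 TPM in CD8 KO, against 188 and 95.2 TPM in CD8 WT. Its CD8 difference was 0.73 ± 0.34 with all libraries, 0.24 ± 0.20 without CD8 WT replicate 2 and 1.21 without CD8 WT replicate 1. The last value has only the library that stood apart as its WT reference.

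Arf1, the GTPase that recruits COPI, had the lowest p of the list in CD8 cells. It stood at 255 and 294 TPM in CD8 KO libraries, against 146 and 151 TPM in CD8 WT libraries. In CD4 KO libraries it stood at 272 and 213 TPM, against 173 and 230 TPM in CD4 WT libraries. The genotypes lay apart in CD8 cells and overlapped in CD4 cells. The difference was 0.88 ± 0.29 in CD8 cells and 0.28 ± 0.29 in CD4 cells (SE, limma, adjusted p = 0.224 and 0.664), and the CD8 difference was 0.90 ± 0.26 without CD8 WT replicate 2. Its exchange factor Gbf1, which loads Arf1 with GTP, was the lowest of the class in every library, at 11.9 and 15.6 TPM in CD4 KO, against 19.9 and 26.9 TPM in CD4 WT, and at 17.1 and 8.66 TPM in CD8 KO, against 24.2 and 16.4 TPM in CD8 WT.

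Among the KDEL receptors, which return soluble ER chaperones from the Golgi, was the gene with the lowest p of the list for a difference between lineages. Kdelr2 stood at 44.2 and 36.6 TPM in CD4 KO, against 83.4 and 45.7 TPM in CD4 WT, and at 71.1 and 84.0 TPM in CD8 KO, against 50.6 and 34.5 TPM in CD8 WT. KO lay below WT in CD4 cells and above WT in CD8 cells. The CD8 difference minus the CD4 difference was 1.48 ± 0.55 (SE, limma, unadjusted p = 0.0228, adjusted p = 0.701) and 1.21 ± 0.51 without CD8 WT replicate 2. At an unadjusted p under 0.05 it was 1 of 47 genes, 2.13%, against 6.95% of all tested genes. At an adjusted p of 0.05, 0% of all tested genes and 0 of 47 were called for this difference. Kdelr1 stood at 133 and 103 TPM in CD4 KO, against 59.9 and 109 TPM in CD4 WT, and at 72.9 and 49.5 TPM in CD8 KO, against 78.8 and 32.7 TPM in CD8 WT. Its share of KDEL receptor transcripts was 75.0% and 73.9% in CD4 KO libraries, against 41.8% and 70.4% in CD4 WT libraries, and in CD8 cells it overlapped between genotypes.

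Golgins, long coiled-coil proteins that catch vesicles at Golgi membranes, were the class with the lowest median in CD4 cells, -0.33, with 2 of 9 higher and 7 lower. Genes of this class span 11.9 to 76.2 kb. The CD4 median was -0.16 over all tested genes. It was -0.03 over those of 10 to 30 kb, -0.37 over those of 30 to 60 kb and -0.70 over those of 60 to 100 kb. Of these genes 51.5%, 71.4% and 84.1% were lower. The class has genes in each of these ranges and was not matched to other genes by length. In CD8 cells the class median was -0.03, with 4 higher and 5 lower, and without CD8 WT replicate 2 it was -0.11, with 3 higher and 6 lower. Golga4, a golgin of the trans-Golgi, stood at 18.4 and 9.26 TPM in CD4 KO libraries, against 39.1 and 30.7 TPM in CD4 WT libraries. The CD8 KO libraries held 9.28 and 19.7 TPM, against 31.1 and 37.2 TPM in CD8 WT libraries. All 4 KO libraries lay below all 4 WT libraries. The differences were -1.34 ± 0.49 and -1.26 ± 0.49 (SE, limma, adjusted p = 0.214 in CD4 cells and 0.280 in CD8 cells), and the CD8 difference was -1.14 ± 0.59 without CD8 WT replicate 2. Golga1, another trans-Golgi golgin, stood at 22.7 TPM in both CD4 KO libraries, against 41.2 and 51.4 TPM in CD4 WT libraries, and at 40.3 and 20.3 TPM in CD8 KO, against 31.4 and 14.0 TPM in CD8 WT libraries. Golga5 was the most abundant golgin by mean, at 143 and 170 TPM in CD4 KO, 148 and 157 TPM in CD4 WT, 139 and 105 TPM in CD8 KO and 183 and 120 TPM in CD8 WT libraries, with overlap in both lineages. Uso1, which tethers COPII vesicles on their way to the Golgi, overlapped in both lineages.

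The Golgi stacking pair was uneven. Gorasp2 stood at 106 and 102 TPM in CD4 KO, against 85.7 and 89.2 TPM in CD4 WT, and at 104 and 117 TPM in CD8 KO, against 93.5 and 96.3 TPM in CD8 WT, a narrow band in which KO lay above WT in both lineages. Gorasp1 stood at 0.658 and 0.892 TPM in CD8 KO libraries, against 5.29 and 4.95 TPM in CD8 WT libraries. In CD4 KO libraries it stood at 9.16 and 3.47 TPM, against 8.51 and 4.25 TPM in CD4 WT libraries. Its CD8 difference was -1.79 ± 0.64 (SE, limma, adjusted p = 0.248), and -1.83 ± 0.74 without CD8 WT replicate 2. The average coverage in the CD8 KO libraries was 1.08 and 1.35 reads per base. The gene overlaps Wdr48 on the other strand over 907 bases, Wdr48 stood at 44.8 to 99.4 TPM, and whether the counting used strand is not stated.

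The SNAREs, which draw vesicle and target membranes together until they fuse, had medians of 0.07 in CD4 cells, with 3 of 6 higher and 3 lower, and 0.51 in CD8 cells, with 6 of 6 higher. In the fit without CD8 WT replicate 2 the CD8 median was 0.23, with Bet1 at -0.48, Gosr1 at 0.00 and the other 4 higher. Ykt6, a lipid-anchored SNARE that cycles between membranes and cytosol, stood at 61.3 and 78.2 TPM in CD4 KO libraries, against 27.7 and 50.6 TPM in CD4 WT libraries. In CD8 KO libraries it stood at 46.1 and 50.3 TPM, against 22.6 and 36.6 TPM in CD8 WT libraries. The genotypes lay apart in both lineages, by 0.87 ± 0.41 in CD4 cells and 0.72 ± 0.41 in CD8 cells (SE, limma, adjusted p = 0.322 and 0.431). The CD8 difference of Ykt6 was 1.06 ± 0.41 without CD8 WT replicate 2. Bet1, a SNARE of ER to Golgi transport, stood at 13.6 TPM in both CD4 KO libraries, against 30.4 and 25.5 TPM in CD4 WT libraries, and at 20.9 and 15.5 TPM in CD8 KO, against 25.5 and 11.3 TPM in CD8 WT libraries. Its relative Bet1l stood at 40.5 and 34.3 TPM in CD4 KO, against 45.5 and 47.4 TPM in CD4 WT, and at 44.5 and 56.7 TPM in CD8 KO, against 39.1 and 26.1 TPM in CD8 WT. Of the transcript of Bet1l, 14.1% lies in stretches shared with 1 other gene. Gosr2 stood at 126 and 134 TPM in CD4 KO, against 104 and 123 TPM in CD4 WT, and at 119 and 154 TPM in CD8 KO, against 105 and 87.8 TPM in CD8 WT. Gosr1 overlapped in both lineages, at 57.5 and 78.6 TPM in CD4 KO and 70.7 and 68.5 TPM in CD4 WT libraries, and at 109 and 119 TPM in CD8 KO and 113 and 53.5 TPM in CD8 WT libraries.

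The COG complex has 2 lobes, Cog1 to Cog4 and Cog5 to Cog8, and tethers vesicles that recycle Golgi enzymes. Cog5 had the lowest p of the 47 genes in CD4 cells. It stood at 9.53 and 18.8 TPM in CD4 KO libraries, against 55.5 and 68.9 TPM in CD4 WT libraries. The CD8 KO libraries held 20.8 and 12.9 TPM, against 37.3 and 39.0 TPM in CD8 WT libraries. All 4 KO libraries lay below all 4 WT libraries. The difference was -2.12 ± 0.44 in CD4 cells (SE, limma, unadjusted p = 0.000728, adjusted p = 0.0671) and -1.17 ± 0.44 in CD8 cells (adjusted p = 0.264), which was -1.14 ± 0.51 without CD8 WT replicate 2. Leaving out CD8 WT replicate 2 kept the CD4 difference at -2.12 with an adjusted p of 0.0327 (limma), a call, and leaving out CD8 WT replicate 1 gave 0.0323. With each of the other 6 libraries left out the difference lay between -2.58 and -1.66 and the adjusted p between 0.127 and 0.574 (limma). Cog5 overlaps Hbp1 on the other strand over 11176 bases, and Hbp1 stood at 163 to 276 TPM.

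The other lobe B subunits had smaller differences in CD4 cells. Cog8 stood at 110 and 87.5 TPM in CD4 KO, against 87.7 and 82.6 TPM in CD4 WT, and at 93.9 and 103 TPM in CD8 KO, against 71.2 and 36.6 TPM in CD8 WT. The ratio of Cog5 to Cog8 was 0.0868 and 0.215 in CD4 KO libraries, against 0.632 and 0.834 in CD4 WT libraries, and 0.221 and 0.125 in CD8 KO libraries, against 0.523 and 1.06 in CD8 WT libraries. Of the transcript of Cog8, 27.5% lies in stretches shared with other genes, 88 in all and most often Pdf, so reads there may be split between them. Cog7 differed by -0.82 ± 0.54 in CD4 cells and -0.65 ± 0.54 in CD8 cells (SE), and Cog6 by 0.06 ± 0.50 and 0.02 ± 0.50. The CD8 differences without CD8 WT replicate 2 were -1.31 ± 0.49 for Cog7 and -0.48 ± 0.52 for Cog6. In lobe A, Cog2 was the most abundant COG gene by mean, at 127 and 108 TPM in CD4 KO, against 90.4 and 117 TPM in CD4 WT, and at 124 and 123 TPM in CD8 KO, against 84.3 and 55.1 TPM in CD8 WT. The CD8 differences were 0.85 ± 0.32 for Cog2 and 0.93 ± 0.36 for Cog8 (SE, limma, adjusted p = 0.271 and 0.280). Without CD8 WT replicate 2 they were 0.55 ± 0.26 and 0.46 ± 0.25, and without CD8 WT replicate 1 they were 1.15 and 1.40. The last 2 values have only the library that stood apart as their WT reference. Cog3 stood at 37.6 and 29.5 TPM in CD4 KO, against 29.1 and 25.3 TPM in CD4 WT, and at 16.5 and 16.8 TPM in CD8 KO, against 42.9 and 21.8 TPM in CD8 WT. Its CD8 difference was -0.84 with all libraries and -1.31 ± 0.36 without CD8 WT replicate 2. Over the 8 subunits the median was 0.01 in CD4 cells, with 4 higher and 4 lower, and 0.06 in CD8 cells, with 5 higher and 3 lower. The CD8 median of the complex turned to -0.29 without CD8 WT replicate 2, with 3 higher and 5 lower.

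**Figure D4:**
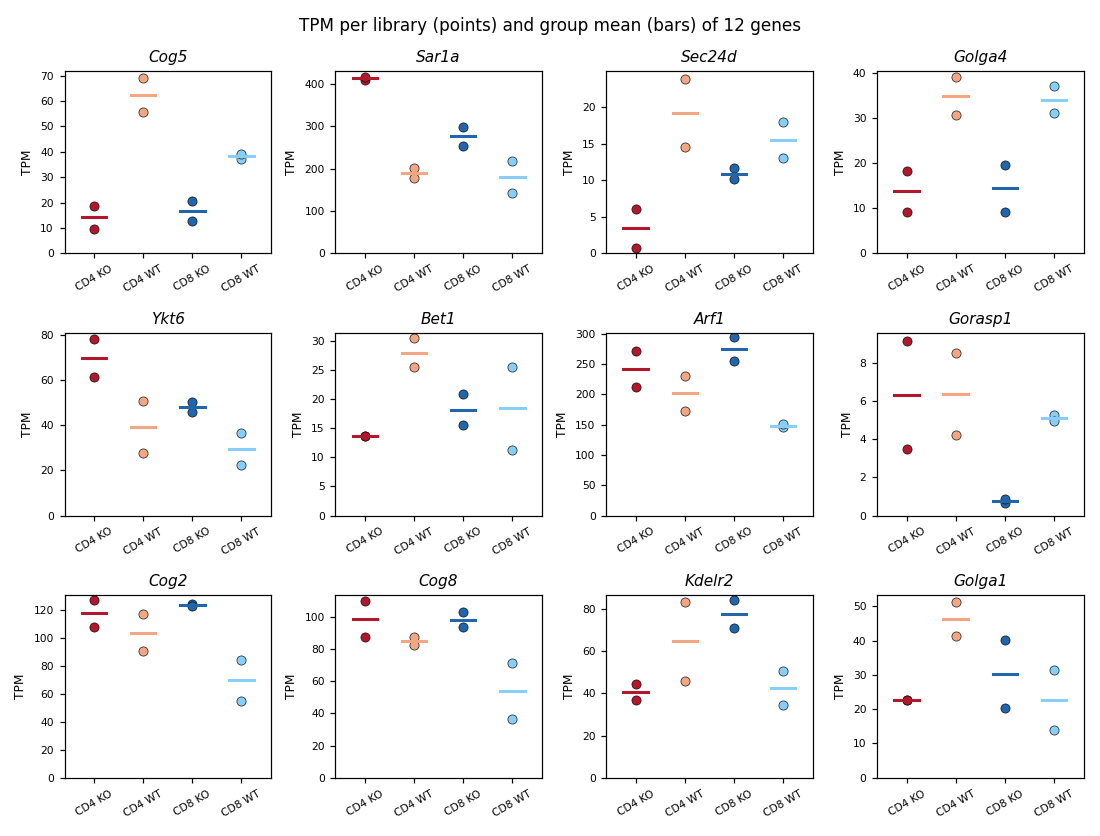
TPM in each library (points) and the group mean (bars) for 12 genes in the groups CD4 KO, CD4 WT, CD8 KO and CD8 WT, each panel with its own vertical axis from 0. Cog5 and Golga4 lie lower in all 4 KO libraries than in all 4 WT libraries, and Sar1a reaches 409 and 417 TPM in CD4 KO libraries.

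Averaging the genotype difference over both lineages uses all 8 libraries for 1 estimate, a contrast added after the data had been seen. By this contrast Cog5 fell by 1.64 ± 0.31 and Sar1a rose by 0.88 ± 0.21 on the log2 scale in KO cells (SE, limma, adjusted p = 0.0246 and 0.0482). These were 2 of 47 genes, 1 in each direction, against 4.12% of all tested genes called, 1.36% higher and 2.76% lower, so the share of the list was near the background. Golga4 was next, at -1.30 ± 0.35 (limma, adjusted p = 0.0673). Without CD8 WT replicate 2 both remained called, at -1.63 for Cog5 and 0.73 for Sar1a (limma, adjusted p = 0.0268 and 0.0203). Neither was called without any single one of the other libraries except CD8 WT replicate 1. Their adjusted p then lay between 0.0653 and 0.149 for Cog5 and between 0.126 and 0.214 for Sar1a (limma). The lowest value for Cog5 and for Sar1a came without CD8 KO replicate 1, and the highest without CD4 KO replicate 1.

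The 3 genes farthest below WT in CD4 cells, Sec24d, Cog5 and Golga4, were among the 5 longest of the list. Of the 21 listed genes of 10 to 30 kb, 11 were lower in CD4 KO cells and 2 were lower in CD8 KO cells. Of all genes of this length 51.5% and 39.3% were lower. Single genes of this length were low, such as Bet1, at -0.98 in CD4 cells. Of the 17 listed genes of 30 to 60 kb, 10 were lower in CD4 and 5 in CD8 KO cells, against 71.4% and 55.8% of all such genes. Their medians were -0.15 in CD4 and 0.43 in CD8 cells, against -0.37 and -0.10. The CD8 values here include CD8 WT replicate 2. Gorasp1, farthest below WT in CD8 cells, spans 11.9 kb and stood at only 0.658 and 0.892 TPM in CD8 KO libraries. Of the 5 longest, Cog5 spans 283 kb of genome, from 31654869 to 31937630 on chromosome 12 of build mm10, Gbf1 134 kb, Sec24d 98.1 kb, Sec24b 77.7 kb and Golga4 76.2 kb. Sar1a spans 13.0 kb. Over all tested genes the difference was lower for longer genes, with a median of -1.11 in CD4 cells and -0.83 in CD8 cells for the 1074 genes of 100 kb or more, against 0.17 and 0.30 for the 3601 genes under 10 kb. For the 336 genes of 200 kb or more the medians were -1.50 in CD4 cells and -1.22 in CD8 cells. All 5 listed genes of 60 to 100 kb and both of 100 kb or more were lower in CD4 KO than in CD4 WT cells, where 84.1% and 88.5% of all genes of these lengths were lower. With the trend over span removed, the CD4 difference of Cog5 was -0.96, that of Sec24d -1.83 and that of Golga4 -0.85, and that of Sar1a was 0.89 (limma, adjusted p = 0.480, 0.385, 0.589 and 0.422). The averaged differences of Cog5 and Sar1a were then -0.52 and 0.75 and were no longer called (limma, adjusted p = 0.491 and 0.210).

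**Figure D5:**
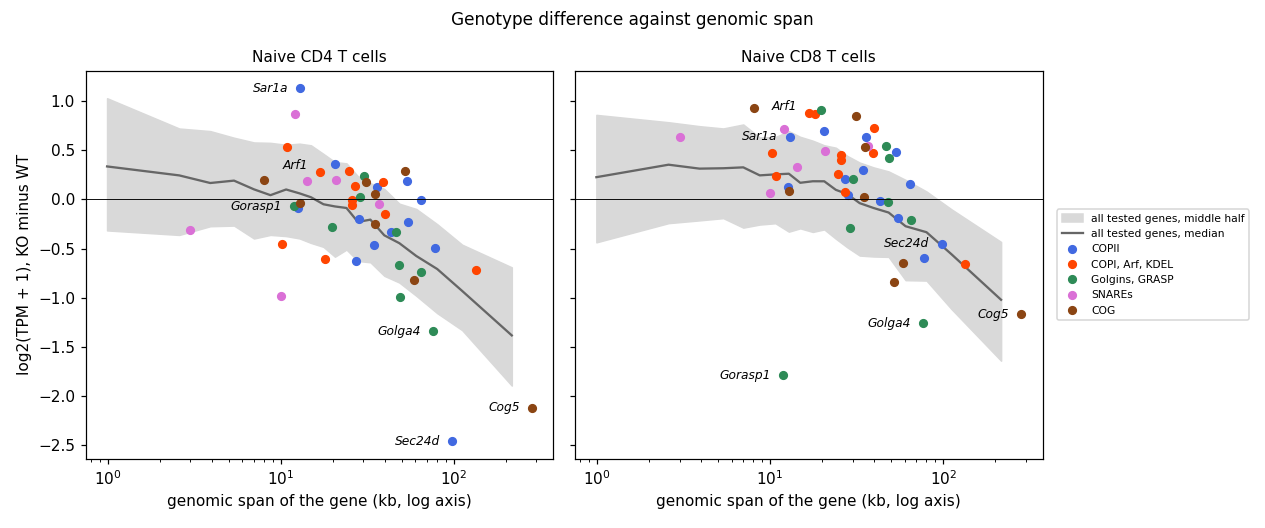
Difference of KO minus WT on the log2(TPM + 1) scale (vertical axis) against genomic span (kb, log axis) in CD4 cells (left) and CD8 cells (right), with the 47 genes as points coloured by class and all tested genes as a median line and a band over their middle quartiles. The line falls below 0 for long genes in both panels, and Cog5, at 283 kb, lies beyond its right end.

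Between lineages without the knockout, 0 of 47 genes were called for CD8 WT minus CD4 WT, against 0.195% of all tested genes, and 3 had an unadjusted p under 0.05 (limma), 6.38% of the list against 8.67% of all tested genes. The median was -0.32, with 5 genes higher and 42 lower, against -0.26 over all tested genes, of which 33% were higher. Without CD8 WT replicate 2 the median was -0.12, with 13 higher and 34 lower, and scaling by the median of ratios gave -0.03, with 21 higher and 26 lower, so no direction is given. The libraries of 15 genes did not overlap, against 34.3% of all tested genes. Golga3 had the lowest p, at 19.4 and 7.48 TPM in CD8 WT libraries, against 30.9 and 35.5 TPM in CD4 WT libraries, a difference of -1.38 ± 0.48 (SE, limma, unadjusted p = 0.0165, adjusted p = 0.488). It was -0.74 ± 0.37 without CD8 WT replicate 2. Sec16a stood at 21.4 and 17.1 TPM in CD8 WT libraries, against 32.5 and 41.0 TPM in CD4 WT libraries.

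A wider list of 65 genes of the same transport steps, cargo receptors, Arf GTPases, other tethers and SNARE regulators, was read alongside, with 62 tested. In CD4 cells 0 of 62 were called (limma), 24 were higher and 38 lower, and 13 had an unadjusted p under 0.05, 21% against 16.7% of all tested genes. In CD8 cells 0 of 62 were called, 31 were higher and 31 lower, and 14 had an unadjusted p under 0.05, 22.6% against 15.1%. The CD8 counts without CD8 WT replicate 2 were 23 higher and 39 lower. By the averaged contrast 1 rose and 4 fell, 8.06% of the list against 4.12% of all tested genes. All 5 calls held without CD8 WT replicate 2 and 4 of them without CD8 WT replicate 1, whereas 0 of the 5 held with any 1 of the other 6 libraries left out, with the span trend removed, with no filter or with no intensity trend. The gene that rose was Surf4, a cargo receptor of ER exit, at 208 and 207 TPM in CD4 KO libraries, against 77.3 and 95.3 TPM in CD4 WT libraries. In CD8 KO libraries Surf4 stood at 173 and 186 TPM, against 91.1 and 117 TPM in CD8 WT libraries, and the averaged difference was 1.03 ± 0.20 (SE, limma, adjusted p = 0.0276). Nsf, the ATPase that takes used SNARE complexes apart, stood at 81.8 and 94.3 TPM in CD4 KO, against 190 and 176 TPM in CD4 WT, and at 115 and 89.3 TPM in CD8 KO, against 195 and 271 TPM in CD8 WT. By the averaged contrast Nsf fell by 1.11 and Tmed5, a p24 family cargo receptor, fell by 0.87 on the log2 scale (limma, adjusted p = 0.0265 and 0.0497). Stx18, an ER SNARE of the retrograde route, fell by 1.53 and Vti1a, a SNARE of the trans-Golgi, fell by 2.18 (limma, adjusted p = 0.0364 and 0.0454). Tmed5 stood at 92.0 and 97.4 TPM in CD4 KO, against 174 and 164 TPM in CD4 WT, and at 125 and 95.3 TPM in CD8 KO, against 179 and 240 TPM in CD8 WT. Stx18 stood at 8.62 and 17.6 TPM in CD4 KO, against 36.7 and 48.8 TPM in CD4 WT, and at 38.9 and 19.1 TPM in CD8 KO, against 67.8 and 75.5 TPM in CD8 WT. Vti1a stood at 2.86 and 2.70 TPM in CD4 KO, against 24.8 and 16.3 TPM in CD4 WT, and at 5.26 and 0.683 TPM in CD8 KO, against 16.4 and 7.11 TPM in CD8 WT. In each of these 3 genes the KO libraries lay below the WT libraries in both lineages. Nsf, Stx18 and Vti1a are themselves long, at 132, 97.6 and 310 kb. Lman2, a lectin cargo receptor, stood at 246 and 215 TPM in CD8 KO libraries, against 124 and 66.4 TPM in CD8 WT libraries, a difference of 1.33 ± 0.35 that was not called (SE, limma, adjusted p = 0.162) and was 0.89 ± 0.25 without CD8 WT replicate 2. In CD4 KO libraries it stood at 205 and 241 TPM, against 160 and 120 TPM in CD4 WT libraries. Nbas, a tether subunit at the ER, stood at 0.175 and 0.286 TPM in CD8 KO libraries, against 5.56 and 4.81 TPM in CD8 WT libraries (limma, adjusted p = 0.173), and at 3.42 and 2.58 TPM in CD4 KO, against 4.00 and 9.20 TPM in CD4 WT libraries. Mcfd2, a partner of the lectin Lman1, varied widely within CD4 groups, at 21.0 and 122 TPM in CD4 KO and 12.8 and 113 TPM in CD4 WT libraries. It was at 176 and 150 TPM in CD8 KO, against 18.8 and 13.2 TPM in CD8 WT libraries (limma, adjusted p = 0.188 in CD8 cells).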

How the data were processed

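RNA from sorted cells was sequenced in 8 libraries, which the labels place in 4 groups of 2. The submitters' processing notes name HISAT and the build mm10. No label or header names the program behind the gene tables, its use of strand or any version. The deposited tables give TPM, which the authors scaled to 1 total per library, and, per the file headers, FPKM, fragments normalized for gene length and library size. The deposited coverage column, the mean depth over a gene per the file headers, was used with FPKM to estimate aligned bases. TPM holds no read counts, so no counting interval or count test could be given, and a gene listed at 0 may be a failed estimate.

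TPM was summed per symbol and the 11786 genes averaging 1 TPM or more were kept. Values of log2(TPM + 1) were modelled in R 4.3.3 by limma 3.58.1, with files read by data.table (version 1.17.8), as 4 group means with an intensity trend, 4 residual and 5.68 prior degrees of freedom. P-values were adjusted over all genes tested by Benjamini-Hochberg and called at 0.05. Tables and figures were made with Python 3.11.15, pandas 2.3.3 and matplotlib 3.10.9. The steps were tested on simulated data.

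The members and lists were chosen with earlier results of these data known. Values in every library are given for the 6 genes of lowest p per genotype contrast, the 3 of lowest p for the other contrasts, the most abundant gene of each class and the paralogue sets, and for called genes and the 4 of lowest p per genotype contrast of the wider list. Copa, Gbf1, Cog3 and Tmed5 were named after their values were seen. Alternatives were other pseudocounts, filters, scalings, weights, blocks, FPKM, removal of the span trend and each library left out. Shared transcript stretches are 50-base windows of the longest GENCODE transcript of each gene.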

Additional observations from a re-analysis of the deposited data

How the results depend on the processing

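The TPM tables limit precision, because read numbers are not known and no counting error can be computed. With 2 libraries per group the number of calls moved widely, and the cause of each move was not tested. Over all tested genes, calls in CD4 cells (84) became 0 with no filter, 141 under median-of-ratios scaling, 134 after markers of other cell types were removed from TPM, 5 with no intensity trend, 1260 with library weights, 2 with the span trend removed and 243 when only the groups compared were fitted. Calls in CD8 cells (35) became 0 with no filter, 15 with no trend, 0 with weights, 15 with the span trend removed and 0 with only the groups compared. For CD8 WT minus CD4 WT (23 calls) the same settings gave 1 with no filter, 4 with no trend, 15 with weights and 0 with only the groups compared. For the averaged contrast (485 calls) they gave 26 with no filter, 759 under median-of-ratios scaling, 312 with no trend and 51 with the span trend removed.

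Leaving out each library in turn gave 0 to 768 calls in CD4 cells, 0 to 1842 in CD8 cells, 0 to 1148 for the difference between lineages (0 with all libraries), 0 to 1629 for CD8 WT minus CD4 WT and 0 to 1798 for the averaged contrast. The lone library of a group is then assumed to vary like the others. Of the 47 genes, the same omissions called 0 to 2 in CD4 cells, 0 to 6 in CD8 cells, 0 to 1 for the difference, 0 to 3 between WT lineages and 0 to 6 for the averaged contrast. The highest counts in CD8 cells, between lineages and for the averaged contrast came without CD8 WT replicate 1. In CD4 cells 1 gene was called with a filter of 5 TPM (Cog5), 1 under median-of-ratios scaling (Sar1a), 3 with weights (Cog5, Sar1a and Sec24d) and 1 with only the groups compared (Sar1a). For the averaged contrast 1 of the 2 was called with a pseudocount of 0.1, 1 with no trend, 0 with no filter and 0 with the span trend removed.

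Replicate numbers are shared across groups, and deviations of same-numbered libraries correlated between -0.04 and 0.09. With 2 libraries per group this cannot show whether the numbers pair the libraries, and the labels do not say. With the replicate block 29 genes were called in CD4 cells, and 1 of the 47 genes by the averaged contrast.

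The median difference between lineages over the 47 genes (0.31) was -0.01 under median-of-ratios scaling and lay between 0.14 and 0.59 when libraries were left out, and the median between WT lineages (-0.32) was -0.03 under that scaling. Over the alternatives signs turned for 20 of the 47 genes in CD4 cells and 20 in CD8 cells. Those of 0.5 or more were Gbf1 (-0.72 in CD4 and -0.66 in CD8 cells), at 0.09 and 0.14 with the span trend removed, and in CD8 cells Cog7 (-0.65), at 0.02 without CD8 WT replicate 1, and Golga3 (0.54), at -0.10 without CD8 WT replicate 2. Gorasp1 in CD4 cells (-0.07) was 0.12 under median-of-ratios scaling, 0.02 with FPKM, and between -0.66 and 0.52 with libraries left out, being 0.36 without CD4 WT replicate 1 and 0.52 without CD4 KO replicate 2. Bet1 in CD8 cells (0.07) was -0.02 under that scaling, -0.03 with markers removed, and between -0.48 and 0.62 with libraries left out, being -0.48 without CD8 WT replicate 2 and -0.13 without CD8 KO replicate 1. With the span trend removed, Cog8 in CD4 cells was -0.12 and Sec24d in CD8 cells 0.18. Cog2 in CD4 cells ran between 0.00 without CD4 WT replicate 1 and 0.37 with libraries left out, and Trappc1 in CD8 cells between -0.66 and 0.33, the last without CD8 WT replicate 1.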
